A study of Mus musculus with 22 samples.

Results

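The genes described here are 8 genes of mechanical and acid sensing in mouse dorsal root ganglia (DRG), out of 55487 genes listed in the deposited count tables. They were chosen by symbol and matched to Ensembl identifiers: the channel genes Piezo1 and Piezo2, the acid-sensing channel genes Asic1, Asic2, Asic3 and Asic4, and the channel modulator genes Stoml3 and Tmem150c. RNA was sequenced in 22 libraries. Whole ganglia of the lower thoracic and lumbar levels came from wild-type (WT) mice and from mice labelled as Postn knock-outs (KO), after 5 days of vehicle or of imiquimod (IMQ), an agonist of Toll-like receptor 7 that causes psoriasis-like skin inflammation. These gave 3 WT vehicle, 2 WT IMQ, 3 KO vehicle and 2 KO IMQ libraries. Cultures labelled as DRG neurons from WT or KO mice were kept for 72 h without (control) or with recombinant POSTN (rPOSTN), with 3 libraries in each of the 4 groups. Postn encodes periostin, a secreted matricellular protein that binds integrins. The strain, the age and the kind of knock-out allele were not given in the sources used here. Whether libraries of a group came from different animals or culture preparations is not stated, so each p-value measures the spread between these samples, which may be technical.

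Piezo1 and Piezo2 are large trimeric cation channels that open when the membrane is stretched or indented. Piezo2 is the main transducer of light touch and proprioception in sensory neurons, whereas Piezo1 is best known in endothelial cells, red blood cells and other non-neuronal cells. Acid-sensing ion channels (ASICs) are sodium-permeable channels of the DEG/ENaC family that open when extracellular protons rise, and their subunits assemble as trimers. Stoml3 encodes a stomatin-domain protein that sensitizes Piezo channels, and Tmem150c encodes tentonin 3, which has been described as a modulator of Piezo currents or as a part of a mechanically activated channel.

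A pair of promoter sequences shows how unlike the regions upstream of these genes are: Piezo1 was the tested member with a higher level in culture, and Asic3 had the highest level per length. Each run covers the 250 bases before the annotated start, from RefSeq on GRCm38.p6, 5′ to 3′ along the gene's strand, with every CG in capitals. The Piezo1 window lies at chr8:122551330-122551579 on the minus strand and the Asic3 window at chr5:24413201-24413450 on the plus strand.
Piezo1: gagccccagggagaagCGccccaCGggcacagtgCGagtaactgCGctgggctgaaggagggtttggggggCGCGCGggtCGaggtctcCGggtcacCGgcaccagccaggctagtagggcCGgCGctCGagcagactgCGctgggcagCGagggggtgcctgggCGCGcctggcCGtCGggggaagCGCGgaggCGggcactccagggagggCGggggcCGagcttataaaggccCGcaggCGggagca
Asic3: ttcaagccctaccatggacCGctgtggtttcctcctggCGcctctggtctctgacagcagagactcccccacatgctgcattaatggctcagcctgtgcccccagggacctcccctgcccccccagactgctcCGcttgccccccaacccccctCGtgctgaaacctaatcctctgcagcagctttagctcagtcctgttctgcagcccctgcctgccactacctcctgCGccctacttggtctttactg
The Piezo1 window held 26 CG dinucleotides at 74% G and C, and 9.59% of the 32851 promoter windows of the same length held at least as many. The Asic3 window held 5 CG at 61.6% G and C, against a median of 6 over all windows. The letters TATAAA (or TTTATA on the other strand), the TATA box, were found in the Piezo1 window and in 12.4% of all windows. ATTAAT, which is its own reverse complement and lies within sites bound by the sensory neuron factor Brn3a, was found in the Asic3 window and in 4.39% of all windows. Neither string was found in the other 7 windows of the members. In those windows the CG count was 5 for Asic1, 14 and 9 for Asic2, 2 for Stoml3, and 26, 16 and 8 for the 3 partly overlapping windows of Tmem150c. These matches describe letters and not binding, and Piezo2 and Asic4 had no entry in that table.

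Library totals ran from 16.7 to 24.1 M counts (M for mega). Levels are CPM, the counts of a gene per M counts of its library, on library sizes scaled by TMM over all 22 libraries, given as mean ± SD. Postn, the gene named as knocked out, was at 24.5 ± 3.20 CPM (n = 3) in WT vehicle ganglia. In KO vehicle ganglia it was at 4.40 ± 0.874 CPM (n = 3) (-2.48 ± 0.22, edgeR adjusted p = 0.0110). After IMQ it was at 49.7 ± 4.81 CPM in WT and 6.32 ± 2.28 CPM in KO (n = 2 each). It stayed detectable in KO cultures, at 373 CPM in KO control 3 and 416 CPM in KO rPOSTN 3 but 65.8 to 100.2 CPM in the other 4 KO culture libraries, against 642 to 971 CPM in WT cultures. Libraries also differed in how CPM ran with gene length: the slope of log2 CPM, relative to the other libraries, per doubling of length lay from -0.20 in KO vehicle 1 to 0.15 in KO IMQ 2 among ganglia, and from -0.12 in KO rPOSTN 1 to 0.04 in KO rPOSTN 2 among cultures. No pan-neuronal, mechanoreceptor or nociceptor marker of the lists used was at 0 in any group. The cultures also held RNA of other cells: 8 satellite glia markers summed to 2234 to 3230 CPM, 8 fibroblast markers to 934 to 2128 CPM and 8 endothelial markers to 200.5 to 291 CPM.

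In whole ganglia, 6 of the 8 genes were well expressed and 2 were close to the detection limit. Per kilobase of exon, Asic3 had the highest level in WT vehicle ganglia, at 37.9 ± 1.79 CPM per kb (n = 3). Piezo2 followed at 24.6 ± 3.19, Tmem150c at 20.2 ± 1.68 and Asic2 at 19.1 ± 1.06 CPM per kb, and libraries of neighbours in this run of 3 overlapped. Asic1 stood lower at 10.2 ± 1.40 and Piezo1 much lower at 0.840 ± 0.0412 CPM per kb, each with no library overlapping its neighbours. On merged exon lengths Asic3 stayed first, with no overlap, in all 8 groups. With the longest transcript as the length its mean was still first in all 8, but its libraries overlapped those of the next gene in 4. In WT vehicle ganglia the order of these 6 genes was then the same, with Piezo2 at 39.3 and Tmem150c at 36.3 CPM per kb, close to the 41.6 of Asic3.

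Stoml3 and Asic4 were at or under 4 counts per library in ganglia. Asic4 had 3 counts in total in each of the 4 ganglion groups, and was at 0 counts in 3 of the 10 ganglion libraries. Stoml3 had 1, 1 and 2 counts in WT vehicle and 4, 3 and 3 in KO vehicle, totals of 4 and 10. It had 1 count in all in WT IMQ and 1 in KO IMQ ganglia. The KO to WT ratio of Stoml3 CPM in vehicle ganglia was 2.43, with an exact interval of 0.702 to 10.6 that covers counting error only and includes 1. Neither gene passed the filter on low counts in the ganglion fit, so neither was tested there.

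**Figure D1:**
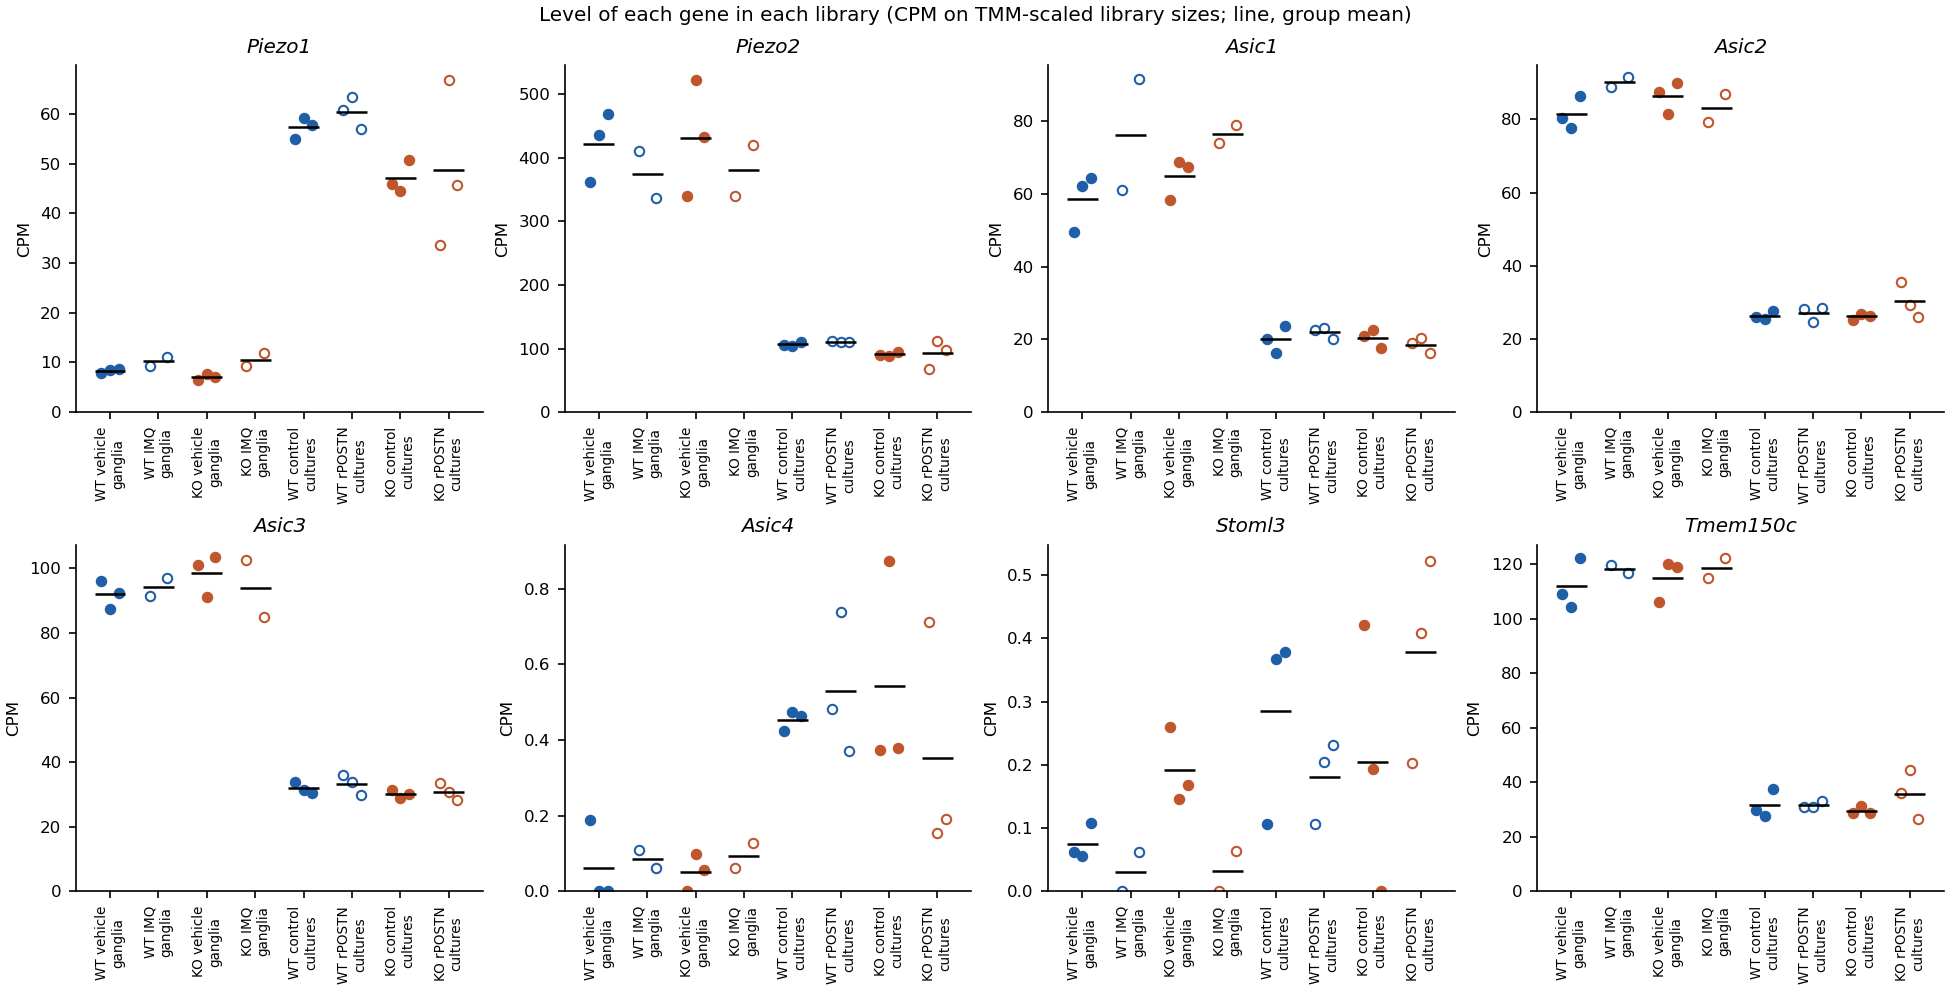
Level of each of the 8 genes in CPM (y axis, from 0, a different scale in each panel) in all 22 libraries by group (x axis). Points are libraries, open for IMQ or rPOSTN, blue for WT and orange for KO, and lines are group means. Piezo1 sits at 33.6 to 66.8 CPM in the 12 culture libraries and at 6.49 to 11.8 CPM in the 10 ganglion libraries, while Piezo2, Asic1, Asic2, Asic3 and Tmem150c are lower in every culture library than in any ganglion library. The share of all genes without overlap over these 22 libraries was not computed. Between control cultures and vehicle ganglia alone it was 76.8% in WT and 71.4% in KO.

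The levels in control cultures were set against those in vehicle ganglia of the same genotype, although preparation and count table coincide there and cannot be told apart. Piezo1 rose in culture while Piezo2 fell, so that the 2 paralogs came closer in level per kilobase. Piezo1 was at 7.87, 8.52 and 8.63 CPM in the 3 WT vehicle ganglia and at 55.1, 59.2 and 57.8 CPM in the 3 WT control cultures. Every culture library lay far above every ganglion library. The difference was 2.79 ± 0.10 (log2 fold change ± SE), a 6.93-fold rise with a 95% interval of 5.95 to 8.08 (edgeR quasi-likelihood test, adjusted p = 5.01e-08). In KO libraries Piezo1 was at 6.49, 7.74 and 6.99 CPM in vehicle ganglia and 45.9, 44.5 and 50.8 CPM in control cultures, again with no overlap, a log2 fold change of 2.77 ± 0.14 (edgeR adjusted p = 1.89e-07). Ctu2, an opposite-strand neighbour that overlaps Piezo1, was at 14.6 ± 2.04 CPM in WT vehicle ganglia and 14.03 ± 0.298 CPM in WT control cultures (n = 3 each). The libraries were strand-specific per the labels' protocols, but whether counting used the strand was not given in the sources used here, so reads shared by the 2 genes could not be separated.

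Piezo2 moved the other way. It was at 361, 435 and 468 CPM in WT vehicle ganglia and at 106.1, 103.8 and 110.1 CPM in WT control cultures. The groups were far apart, and the cultures varied less than the ganglia. Piezo2 fell by 1.97 ± 0.11 on the log2 scale (edgeR adjusted p = 4.98e-07), to 0.256 of its ganglion level. In KO libraries it went from 339, 522 and 433 CPM to 90.4, 88.9 and 94.5 CPM, a log2 fold change of -2.199 ± 0.16 (edgeR adjusted p = 1.57e-06). Per kilobase of merged exon, WT control cultures held 6.21 ± 0.185 CPM of Piezo2 and 5.77 ± 0.210 CPM of Piezo1 (n = 3 each), a ratio of 1.02 to 1.12 within the 3 libraries, where WT vehicle ganglia had a ratio of 26.6 to 31.4. With the longest transcript as the length, Piezo2 was 35.2 to 51.7 times as high as Piezo1 in the 6 vehicle ganglia of both genotypes and 1.28 to 1.63 times in the 12 cultures.

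The 3 abundant ASIC genes all fell, by similar amounts. Asic1, which encodes a subunit found in central and peripheral neurons, was at 49.6, 62.2 and 64.5 CPM in WT vehicle ganglia and 20.2, 16.2 and 23.7 CPM in WT control cultures. Asic2, which encodes a subunit with low acid sensitivity that joins heteromers, went from 80.4, 77.6 and 86.4 CPM to 26.0, 25.4 and 27.5 CPM. Asic3, which encodes a subunit enriched in sensory neurons, including muscle and cardiac afferents, went from 96.0, 87.4 and 92.4 CPM to 33.8, 31.5 and 30.6 CPM. No culture library of these genes reached a ganglion library. In WT, Asic1 fell by 1.54 ± 0.15, Asic2 by 1.62 ± 0.09 and Asic3 by 1.51 ± 0.09 on the log2 scale (edgeR adjusted p = 1.71e-05, 4.34e-07 and 7.19e-07). In KO libraries Asic1 ran from 58.4 to 68.8 CPM in vehicle ganglia and from 17.6 to 22.6 CPM in control cultures, Asic2 from 81.6 to 89.8 and from 25.2 to 26.9 CPM, and Asic3 from 91.1 to 103.6 and from 28.9 to 31.5 CPM. The KO groups were as far apart as the WT ones, with log2 fold changes of -1.63 ± 0.14 for Asic1, -1.68 ± 0.11 for Asic2 and -1.67 ± 0.12 for Asic3 (edgeR adjusted p = 5.03e-06, 1.02e-06 and 1.21e-06). Tmem150c, the modulator gene, went from 109.1, 104.4 and 122 CPM in WT vehicle ganglia to 29.9, 27.8 and 37.7 CPM in WT control cultures. It fell by 1.80 ± 0.12 on the log2 scale in WT and by 1.92 ± 0.12 in KO (edgeR adjusted p = 1.76e-06 and 5.16e-07).

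All 6 tested members were therefore called in both genotypes, 1 higher and 5 lower, and none overlapped between preparations. These counts stand against a very large background. In WT, 72.1% of 17065 genes were called, 36.1% higher and 36% lower, and the libraries did not overlap for 76.8%. In KO, 65.6% of 17184 genes were called, 32.6% higher and 33% lower, and 71.4% did not overlap. A call by itself therefore says little about these genes, and the sizes and directions carry the description. The median log2 fold change of the 6 was -1.58 in WT and -1.67 in KO, against -0.01 and 0.00 for all genes tested. Without KO control 3, the control culture with high Postn, Piezo1 was at 2.72 and Piezo2 at -2.22, and all 6 were still called.

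Neuronal markers fell in the same comparison. The 12 pan-neuronal genes summed to 14760 to 17170 CPM in WT vehicle ganglia and 7041 to 7323 CPM in WT control cultures, and 10 of the 12 were called lower in each genotype. The 14 markers of low-threshold mechanoreceptors and proprioceptors, the neurons in which Piezo2 is best known, summed to 3616 to 4029 CPM and 1426 to 1494 CPM, with 12 of 14 called lower in each genotype. Nefh, from 2035 to 527 CPM, and Ret, from 839 to 497 CPM, were the largest terms of these WT sums. Single markers differed, from Pvalb, at 90.7 and 13.9 CPM, to Whrn, at 14.1 and 15.0 CPM, so the sum does not stand for each marker. Among other cells, 3 of 8 endothelial markers were called higher and 1 lower in each genotype. Their sums were 127 to 154 CPM in WT vehicle ganglia and 261 to 284 CPM in WT control cultures. Their median log2 fold change was 0.34 in WT and 0.07 in KO, so this sum does not stand for each marker either. The 5 proliferation markers were all higher in each genotype. All 5 erythroid, 9 of 10 myelinating Schwann and 10 of 11 nociceptor markers were lower in each genotype, as was the 1 adipocyte marker tested. Of 8 satellite glia markers, 4 were higher and 4 lower in each genotype. In WT, 2 of 8 fibroblast markers were higher and 5 lower, and 1 of 10 macrophage markers was higher and 8 lower. Of 6 mural markers, 1 was higher and 3 lower in WT. In KO these 3 lists had 2 higher and 3 lower, 1 and 9, and 1 and 2. In bulk RNA, fewer cells of a type and less RNA per cell cannot be told apart, and beyond the scaling that follows the part of these shifts in the result was not tested.

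When library sizes were set to the summed counts of the 12 pan-neuronal genes, the median of all genes moved to 1.11 in WT and 1.26 in KO, and 85.2% of called genes in WT were higher, against 50.1% with TMM. In KO these shares were 87.5% and 49.6%. On this scale Piezo1 was at 3.91 ± 0.13 in WT and 4.04 ± 0.19 in KO (edgeR adjusted p = 2.18e-08 and 3.62e-08). Piezo2 was still lower, at -0.86 ± 0.15 and -0.95 ± 0.21 (edgeR adjusted p = 0.000332 and 0.00121), and so was Tmem150c, at -0.69 ± 0.14 and -0.65 ± 0.16 (edgeR adjusted p = 0.000962 and 0.00230). The ASIC genes had smaller differences: -0.43 ± 0.18 for Asic1, -0.50 ± 0.11 for Asic2 and -0.39 ± 0.10 for Asic3 in WT (edgeR adjusted p = 0.0410, 0.00156 and 0.00437). In KO, Asic1 was no longer called, at -0.37 ± 0.17 (edgeR adjusted p = 0.0569), while Asic2 at -0.41 ± 0.14 and Asic3 at -0.39 ± 0.14 were (edgeR adjusted p = 0.0191 and 0.0194). On this scale 85.1% of genes in WT were called, 72.5% higher and 12.6% lower, and 83.3% in KO, 72.9% higher and 10.4% lower. Per 1000 CPM of pan-neuronal RNA, Piezo2 was at 26.9 ± 5.08 CPM in WT vehicle ganglia and 14.8 ± 0.329 CPM in WT control cultures, Asic3 at 5.82 ± 0.198 and 4.43 ± 0.210 CPM, and Piezo1 at 0.531 ± 0.0633 and 7.96 ± 0.442 CPM (n = 3 each). The 12 scaling genes did not move alike. From WT vehicle ganglia to WT control cultures, mean Nefl went from 4653 to 840 CPM and Elavl4 from 336 to 80.3 CPM. Prph went from 1779 to 1426 CPM and Gap43 from 232 to 244 CPM. The sum is weighted to the abundant genes, and how these values depend on the markers chosen was not tested.

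**Figure D2:**
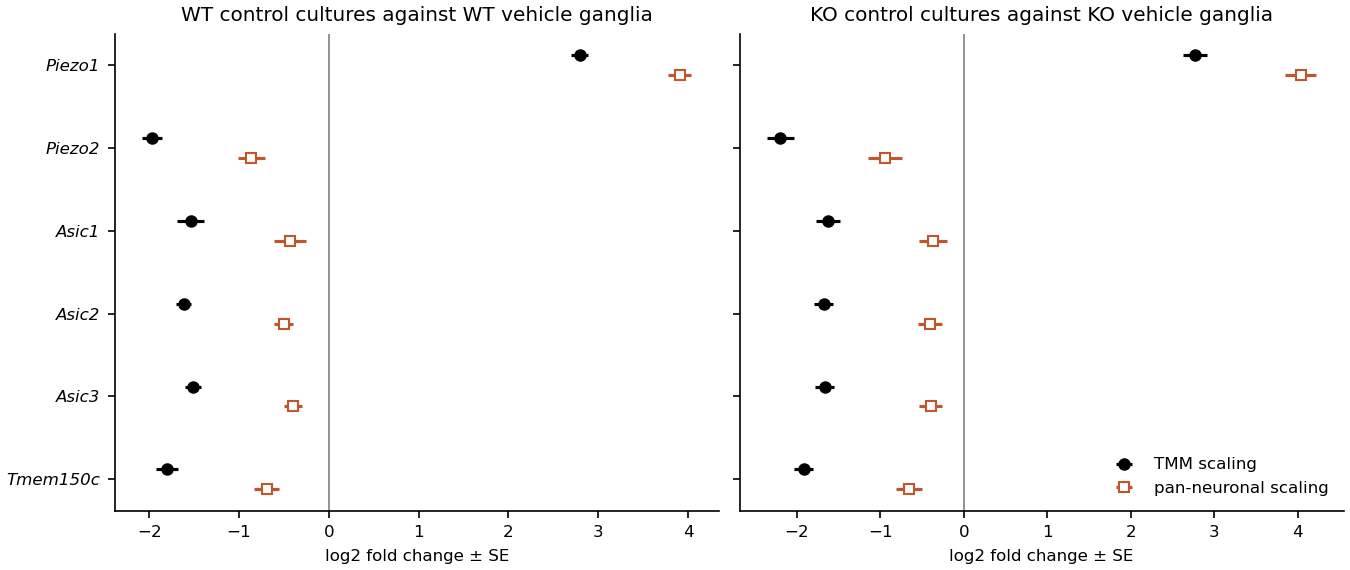
Log2 fold change ± SE (x axis) of the 6 tested genes (y axis) between control cultures and vehicle ganglia, WT at left and KO at right, with 3 libraries in each group. Black circles use TMM scaling and open squares pan-neuronal scaling. Piezo1 lies right of 0 on both scales, at 2.79 and 3.91 in WT, and the other 5 lie left of 0, from -1.51 to -1.97 on the TMM scale in WT.

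The 2 scarce genes were counted more often in culture or did not differ detectably. Asic4 had 8, 9 and 11 counts in the WT control cultures, 28 in all, against 3 in WT vehicle ganglia, a CPM ratio of 7.92 (exact 95% interval 2.45 to 40.7). In KO it had 34 counts against 3, a ratio of 9.64 (3.03 to 49.0). With no filter on low counts, edgeR called both (adjusted p = 0.00171 and 0.00266), as it did 44.6% of 33948 genes in WT and 40.9% of 32633 in KO. All Asic4 levels stayed under 1 CPM, and an opposite-strand gene that overlaps it, Gm37264, had 3 to 13 counts in ganglion libraries, more than Asic4 itself. Stoml3 had 18 counts in WT control cultures against 4 in WT vehicle ganglia, a ratio of 3.82 (1.26 to 15.5) that edgeR with no filter did not call (adjusted p = 0.0771). In KO it had 13 counts against 10, a ratio of 1.11 (0.448 to 2.82). These intervals cover counting error only.

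Related genes from 4 hand-written lists put the members beside their pathways. Of 52 such genes, 47 were tested in WT, where 12 rose and 23 fell, and 48 in KO, where 9 rose and 26 fell; 8 rose and 23 fell in both. Their median log2 fold change was -0.39 in WT and -0.45 in KO, against -0.01 and 0.00 for all genes tested. The shares of all genes called, 72.1% in WT (36.1% higher, 36% lower) and 65.6% in KO (32.6% higher, 33% lower), were of a similar size to the share called here, so that the counts below say little by themselves. Of 14 Piezo partners and modulators, 6 rose and 5 fell in WT, and 5 rose and 6 fell in KO. Mdfic, which encodes an auxiliary subunit of Piezo channels, rose from 15.5 ± 2.43 to 44.8 ± 3.84 CPM in WT (1.54 ± 0.13, edgeR adjusted p = 6.33e-06). This was the direction of Piezo1 and opposite to that of Piezo2, and a link to either was not tested. In KO Mdfic was at 1.44 ± 0.15 (edgeR adjusted p = 1.65e-05). Plcd1, a phospholipase C gene, rose by 1.53 ± 0.12 and Stom, which encodes stomatin, by 0.72 ± 0.08, while Nedd4l, a ubiquitin ligase gene, fell by 1.13 ± 0.11 on the log2 scale (edgeR adjusted p = 4.61e-06, 3.86e-05 and 1.70e-05). In KO the 4 genes with the smallest p were Mdfic, Nedd4l, Plcd1 and Anxa6, an annexin gene at -0.90 ± 0.12 (edgeR adjusted p = 7.82e-05).

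Of 15 other mechanosensitive channel genes, 2 rose and 6 fell in WT, and 1 rose and 7 fell in KO. Trpa1, an irritant receptor of nociceptors, fell from 105 ± 8.25 to 13.1 ± 1.09 CPM in WT, a log2 fold change of -2.99 ± 0.11, and Trpc6, a diacylglycerol-gated cation channel gene, was at -4.77 ± 0.18 (edgeR adjusted p = 5.39e-08 and 7.49e-08). Kcnk2, which encodes the stretch-activated potassium channel TREK-1, and Tmem63b, an osmosensitive channel gene, were at -1.25 ± 0.11 and -0.83 ± 0.09 (edgeR adjusted p = 6.52e-06 and 3.12e-05). Of 12 acid-sensitive channels and proton receptors, 2 rose and 6 fell in WT, and 1 rose and 7 fell in KO. Trpv1, the capsaicin receptor, which protons also open and which is on the nociceptor list too, fell from 160.6 ± 8.96 to 25.8 ± 3.95 CPM in WT, a log2 fold change of -2.63 ± 0.13 (edgeR adjusted p = 2.20e-07). The potassium channel genes Kcnk1 and Kcnk18 were at -2.76 ± 0.13 and -4.22 ± 0.29, and Otop1, a proton channel gene, was at -2.60 ± 0.20 (edgeR adjusted p = 1.66e-07, 1.62e-06 and 3.43e-06). Of 11 ASIC modulators and DEG/ENaC relatives, 2 rose and 6 fell in each genotype. Prkca, a protein kinase C gene, and Magi1, a scaffold gene, had log2 fold changes of -2.15 ± 0.11 and -2.14 ± 0.11 in WT (edgeR adjusted p = 3.24e-07 and 3.51e-07). Mag, the myelin-associated glycoprotein gene that is also a Schwann marker, was at -5.34 ± 0.30 (edgeR adjusted p = 4.77e-07). Scnn1b, an epithelial sodium channel subunit gene, rose from 0.0187 to 1.36 CPM, on few counts in ganglia (edgeR adjusted p = 4.11e-05). No difference in direction between these lists and other genes was tested.

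IMQ was compared with vehicle in ganglia, with 2 IMQ libraries in each genotype. No member was called in either genotype. In WT 1.3% of 17197 genes were called, 1.12% higher and 0.18% lower, and in KO 1.1%, 1.09% higher and 0.0174% lower. Piezo1 lay above vehicle in both: 9.39 and 11.1 CPM in WT IMQ against 7.87 to 8.63 CPM in WT vehicle, and 9.23 and 11.8 CPM in KO IMQ against 6.49 to 7.74 CPM in KO vehicle. Groups did not overlap for 2 of the 6 genes in WT (Piezo1 and Asic2) and 2 of 6 in KO (Piezo1 and Asic1), against 21.5% of all genes in WT and 23.8% in KO. The log2 fold change was 0.30 ± 0.15 in WT (edgeR adjusted p = 0.835) and 0.57 ± 0.16 in KO, where the unadjusted p of edgeR was 0.00443 and the adjusted p 0.215. The fold in KO was 1.49 with a 95% interval of 1.17 to 1.89. Across the alternatives its adjusted p ran from 0.103 to 1.00. The response of Piezo1 in KO minus that in WT was 0.27 ± 0.22 (edgeR adjusted p = 0.999). With a per-library offset for gene length, Piezo1 was at 0.41 ± 0.14 in KO and its KO minus WT response at 0.12 ± 0.19 (edgeR adjusted p = 0.291 and 0.993).

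Macrophage markers rose in the same libraries, from 117.5 to 148 CPM summed over 10 genes in WT vehicle to 494 and 549 CPM in WT IMQ, and from 124 to 151 CPM in KO vehicle to 421 and 483 CPM in KO IMQ, with 8 of 10 called higher in each genotype. Endothelial markers summed to 137 and 180.0 CPM in WT IMQ against 127 to 154 CPM in WT vehicle, and to 151 and 155 CPM in KO IMQ against 116 to 141 CPM in KO vehicle, a pair of groups that did not overlap, with no single marker called in either genotype. The 5 erythroid markers summed to 32.5 and 48.1 CPM in WT IMQ against 113 to 149 CPM in WT vehicle, and to 21.6 and 28.4 CPM in KO IMQ against 43.1 to 497 CPM in KO vehicle. These sums did not overlap in either genotype, and the median log2 fold changes were -1.82 and -2.95, but no single erythroid marker was called. The 10 myelinating Schwann markers summed to 5532 and 7851 CPM in WT IMQ against 10490 to 16180 CPM in WT vehicle, with 1 called lower. In KO they summed to 5540 and 6062 CPM against 6883 to 8289 CPM, with none called. Adipocyte markers summed to 10.8 and 18.3 CPM in WT IMQ against 4.58 to 7.63 CPM in WT vehicle. In KO these sums were 8.91 and 13.1 CPM against 2.96 to 5.45 CPM, with no marker called in either genotype. Proliferation markers summed to 20.55 and 23.4 CPM in WT IMQ against 11.5 to 16.5 CPM, with overlap in KO and none called. The part of any cell type in the Piezo1 values under IMQ was not tested.

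Piezo2 was at 410.3 and 337 CPM in WT IMQ and at 339 and 420.3 CPM in KO IMQ, within the span of the vehicle libraries or just under it. Its log2 fold change was -0.17 ± 0.19 in WT and -0.18 ± 0.19 in KO (edgeR adjusted p = 1.00 and 0.733). The 95% intervals of the fold were 0.659 to 1.198 and 0.653 to 1.187. With a per-library offset for gene length the KO value was -0.42 ± 0.11 (edgeR adjusted p = 0.155). Asic1 was at 61.0 and 91.6 CPM in WT IMQ against 49.6 to 64.5 CPM in WT vehicle, so that 1 IMQ library was inside the vehicle range and the other far above it. The log2 fold change was 0.38 ± 0.18 (edgeR adjusted p = 0.724), and 0.06 without WT IMQ 2 but 0.64 without WT IMQ 1. In KO, Asic1 was at 73.9 and 78.9 CPM under IMQ against 58.4 to 68.8 CPM, a log2 fold change of 0.24 ± 0.18 (edgeR adjusted p = 0.658). Asic2 and Asic3 had log2 fold changes of 0.15 ± 0.10 and 0.04 ± 0.12 in WT and -0.06 ± 0.10 and -0.07 ± 0.12 in KO. Tmem150c was at 0.08 ± 0.11 in WT and 0.04 ± 0.11 in KO. Every 95% interval of the 6 tested genes under IMQ lay within a 2-fold change in either direction, as the plot of treatment and genotype effects shows. Stoml3, on counts too low for the test, had 10 counts in KO vehicle and 1 in KO IMQ, a ratio of 0.169 (exact 95% interval 0.00388 to 1.19).

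Among the 52 related genes, Gpr65 was the 1 gene called under IMQ in each genotype. Gpr65 encodes a proton-sensing receptor of leukocytes and was at 1.59 ± 0.120 CPM in WT vehicle (n = 3) and 5.84 ± 0.639 CPM in WT IMQ (n = 2). It rose by 1.88 ± 0.19 in WT and 1.48 ± 0.19 in KO (edgeR adjusted p = 0.000942 and 0.00458), in the libraries in which macrophage markers rose.

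No member was called between genotypes in ganglia. Between KO and WT vehicle ganglia 0 of 6 were called, against 0.0116% of all genes. Piezo1 was lower in all 3 KO libraries than in any WT library, at -0.24 ± 0.14 (edgeR adjusted p = 1.00), and was the 1 of 6 without overlap, against 6.92% of all genes. Piezo2 was at 0.03 ± 0.17, Asic1 at 0.14 ± 0.16, Asic2 at 0.08 ± 0.09, Asic3 at 0.10 ± 0.10 and Tmem150c at 0.04 ± 0.09 (each edgeR adjusted p = 1.00). Myelinating Schwann markers summed to 6883 to 8289 CPM in KO and 10490 to 16180 CPM in WT vehicle ganglia, with no overlap. Their median log2 fold change was -0.68 and that of fibroblast markers -0.51, but no single marker of either list was called. The part of these shifts in the values of the members was not tested. Between KO and WT IMQ ganglia 0 of 6 were called, against 0.00581% of all genes, and the log2 fold changes ran from -0.12 to 0.04. The groups did not overlap for 1 of 6, Asic2, against 33.1% of all genes. The IMQ responses of the 6 genes in KO minus those in WT ran from -0.21 to 0.27 with none called, as for 0% of 17197 genes, of which 364 had an unadjusted p under 0.05. In culture the genotypes came from separate tables and were not compared by a test. Side by side, Piezo1 was at 57.4 ± 2.09 CPM in WT control and 47.0 ± 3.34 CPM in KO control cultures, Piezo2 at 106.6 ± 3.18 and 91.3 ± 2.90 CPM, Asic2 at 26.3 ± 1.09 and 26.1 ± 0.875 CPM, and Asic3 at 31.96 ± 1.67 and 30.2 ± 1.32 CPM (n = 3 each).

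No member was called after 72 h of rPOSTN. In WT cultures 0 of 6 were called, as were 0% of 16639 genes, of which 661 had an unadjusted p under 0.05. With the replicate number as a block edgeR called 8 genes there and no member. Piezo1 was at 60.8, 63.5 and 56.9 CPM with rPOSTN against 55.1, 59.2 and 57.8 CPM in control, overlapping groups with a log2 fold change of 0.07 ± 0.06. Piezo2 was at 111.1, 110.9 and 110.5 CPM against 106.1, 103.8 and 110.1 CPM, the 1 of 6 without overlap, against 9.24% of all genes, at a log2 fold change of 0.05 ± 0.04. Its fold had a 95% interval of 0.976 to 1.10. The other 4 lay from -0.01 ± 0.10 for Tmem150c to 0.12 ± 0.11 for Asic1, with Asic2 at 0.04 ± 0.08 and Asic3 at 0.05 ± 0.07 (each edgeR adjusted p = 0.999).

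In KO cultures 0 of 6 were called, as were 0% of 16756 genes, of which 155 had an unadjusted p under 0.05. Piezo1 was at 33.6, 66.8 and 45.7 CPM with rPOSTN against 45.9, 44.5 and 50.8 CPM in control, so the treated libraries spread to both sides of the control ones. Its log2 fold change was 0.03 ± 0.22. Piezo2 was at 68.0, 111.3 and 97.4 CPM against 90.4, 88.9 and 94.5 CPM, at 0.00 ± 0.17. Asic1 was at -0.16 ± 0.16, Asic2 at 0.19 ± 0.14, Asic3 at 0.01 ± 0.12 and Tmem150c at 0.25 ± 0.17 (each edgeR adjusted p = 1.00). The groups overlapped for all 6, whereas 5.68% of all genes did not overlap. The rPOSTN responses in KO minus those in WT ran from -0.88 to 0.25 over the 7 members tested in that fit, with none called, as for 0% of 17519 genes, of which 342 had an unadjusted p under 0.05. In that fit Asic4 passed the filter, on 21 to 35 counts per group, and gave the lowest value (-0.88 ± 0.83). Without KO control 3, and without KO rPOSTN 3, the cultures with high Postn, 0 of 6 were called.

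**Figure D3:**
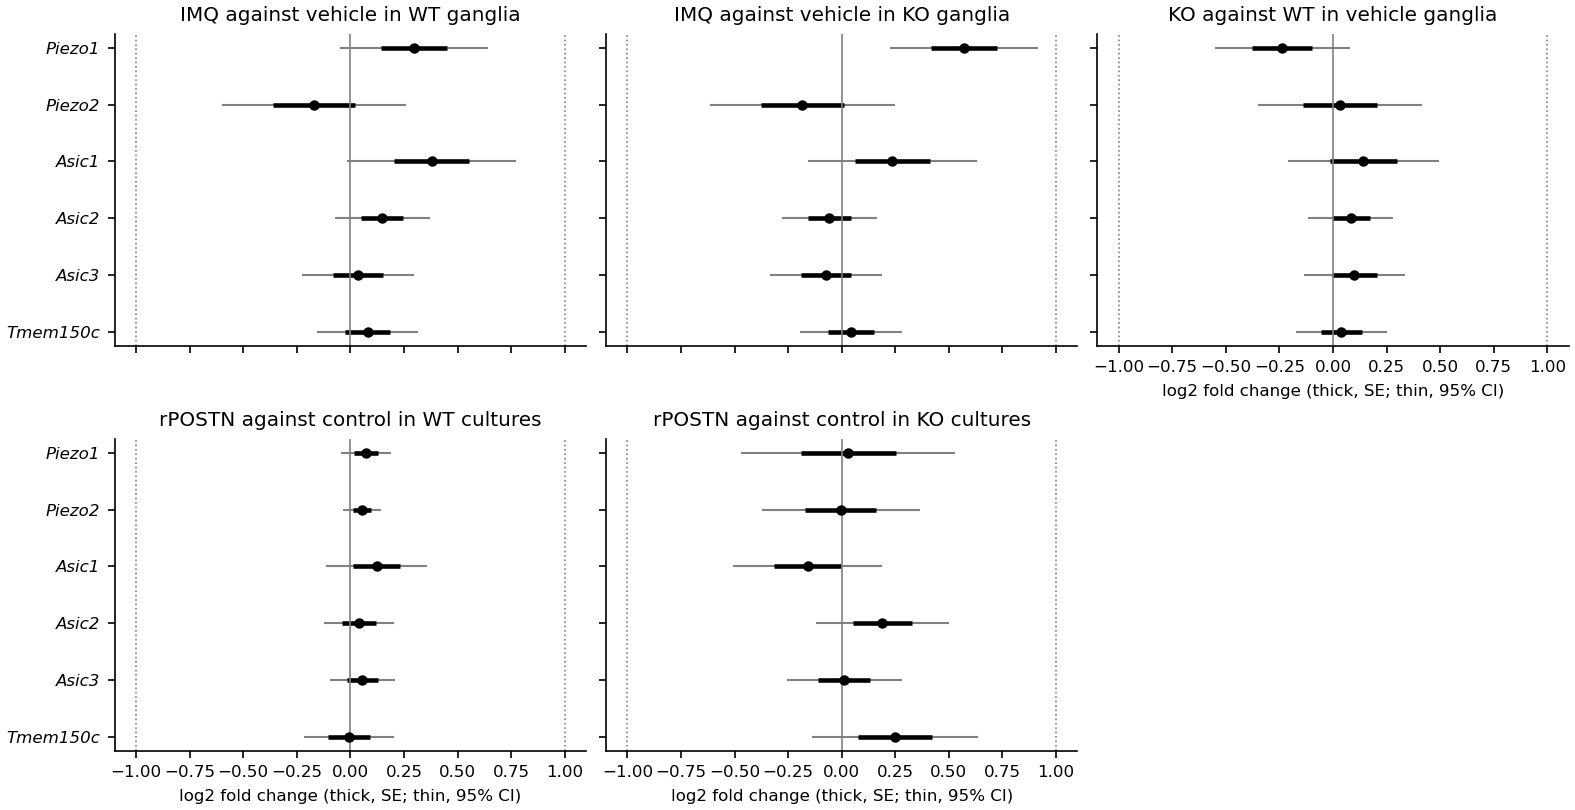
Log2 fold change (x axis) of the 6 tested genes (y axis) for IMQ in each genotype, for genotype in vehicle ganglia and for rPOSTN in each genotype. Points are edgeR estimates, thick bars the SE and thin bars the 95% interval; dotted lines mark a 2-fold change. The thin bars cross 0 in each panel except for Piezo1 under IMQ in KO, at 0.57 ± 0.16, which was not called after adjustment.

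Piezo1 and Piezo2, the members with the most exon sequence at 9.94 and 17.2 kb, differed between replicates whose length slopes differed. In ganglia Piezo2 was low in the 2 libraries with the most negative slopes, at 361 CPM in WT vehicle 1 (slope -0.16) and 339 CPM in KO vehicle 1 (slope -0.20), and highest at 522 CPM in KO vehicle 2 (slope 0.12). It was also low, at 337 CPM, in WT IMQ 2, whose slope was 0.00, and KO IMQ 2, with the highest slope, 0.15, had 420.3 CPM. In KO rPOSTN cultures the library with a slope of -0.12 had 33.6 CPM of Piezo1 and 68.0 CPM of Piezo2, and the one with a slope of 0.04 had 66.8 and 111.3 CPM. Asic3, with exons of 2.42 kb, did not follow that order: it was at 33.6 CPM in the first of these cultures and 30.8 CPM in the second. With the offset for length, the SE of Piezo2 for KO against WT in vehicle ganglia was 0.10 in place of 0.17. Beyond this offset, the part of the slope in the values was not tested.

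**Figure D4:**
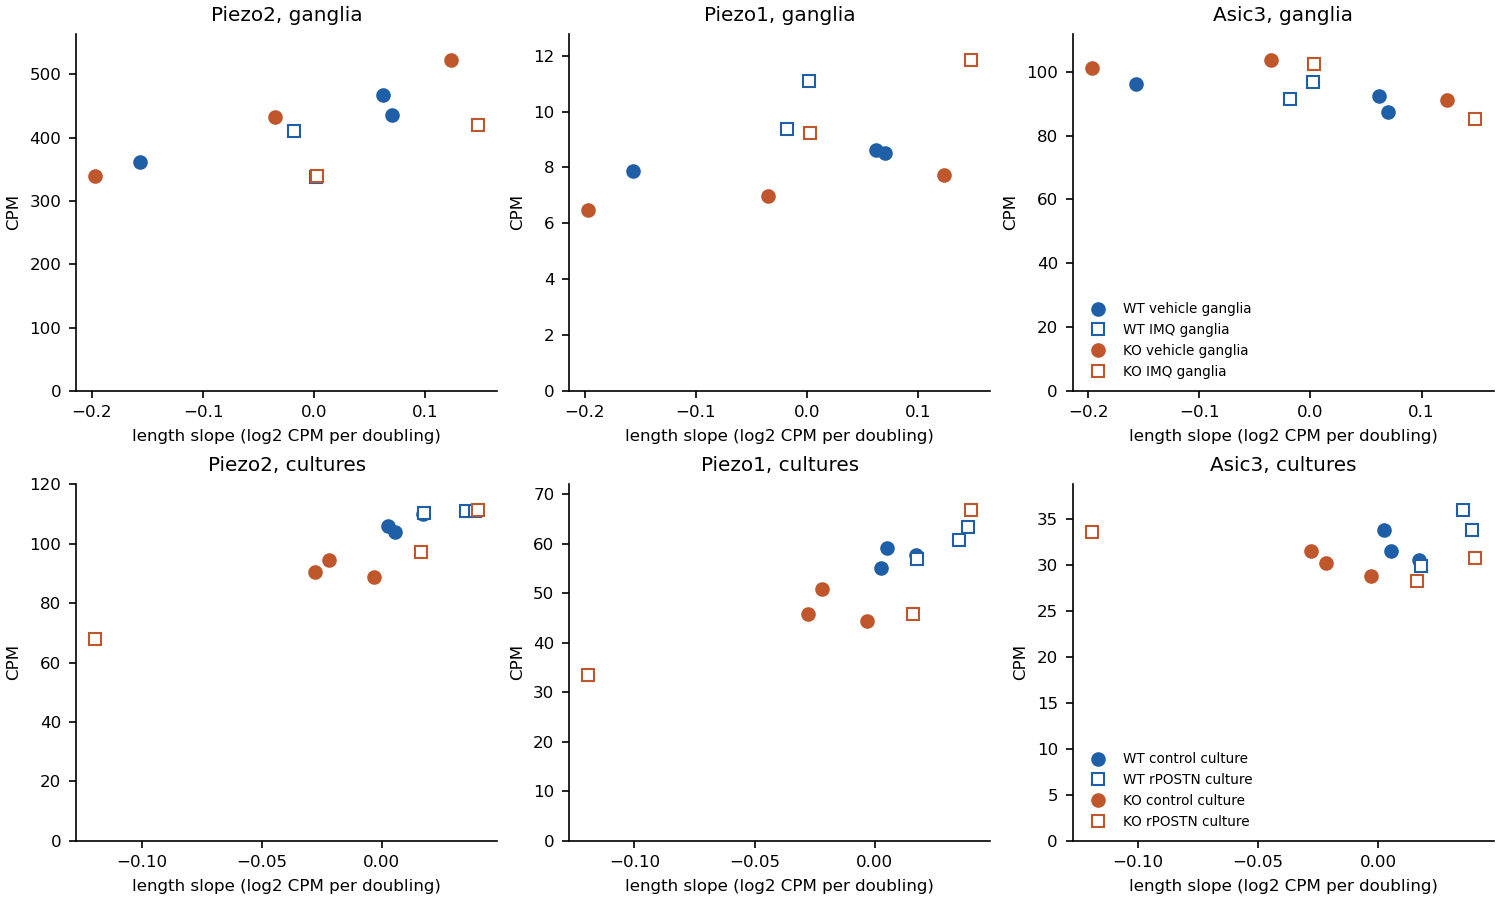
CPM of Piezo2, Piezo1 and Asic3 (y axes, from 0) in each library against that library's slope of log2 CPM per doubling of gene length (x axes), for the 10 ganglion libraries above and the 12 culture libraries below. Circles are vehicle or control, squares IMQ or rPOSTN, blue WT and orange KO. In culture the library with the lowest slope, -0.12, has the lowest Piezo2 (68.0 CPM) and Piezo1 (33.6 CPM), but not the lowest Asic3 (33.6 CPM).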

How the data were processed

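The values used are raw counts of reads for each gene in 3 deposited tables, 1 for the ganglia and 1 for the cultures of each genotype. Per the submitters' processing notes, tools included Bowtie2 2.2.3, HISAT2 2.1.0 and TopHat2, with GRCm39 as the build. Libraries were poly-A selected and strand-specific, per the labels' protocols. For the counter, its strand setting and its annotation, nothing is given in the sources used here. Symbols and exon lengths came from GENCODE M21 on GRCm38.

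Two-sided quasi-likelihood tests in edgeR 4.0.16 (robust, R 4.3.3) followed filterByExpr and TMM scaling. All tested genes entered the Benjamini-Hochberg adjustment, and genes under 0.05 were called. The 10 ganglion libraries shared 1 fit. The code was tested on simulated data. Across 20 pairs of replicates the chi-square per degree of freedom was 2.59 to 77.1, so no pair differed by counting error alone. The lowest values were for replicates 1 and 2 of WT control (2.59) and WT rPOSTN cultures (2.93), and for WT vehicle 2 and 3 (3.57). These values do not tell whether the libraries of a pair came from 1 RNA, animal or culture.

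The members, lists and comparisons were chosen with earlier results of these data known. Named by rule were the 8 members, Postn, up to 4 called genes per list with the smallest p, and the 3 most alike genes per member. Ctu2 and Gm37264 are named for their overlap with members. No reported test used a replicate block, which was run only as an alternative, in every comparison. Replicate numbers met a criterion for pairing where there were 3 pairs and, in each, deviations from the group means correlated across genes above 0.1. This criterion came from the data and not from the labels. The correlations were 0.41, 0.40 and 0.68 in WT cultures and 0.39, 0.71 and 0.63 in KO cultures. Between WT and KO vehicle ganglia they were 0.87, 0.83 and 0.16. Genes are not independent replicates in these correlations. The other comparisons did not meet the criterion. For IMQ against vehicle this was only because there were 2 pairs. The correlations there were 0.23 and 0.20 in WT and 0.75 and 0.76 in KO. Alternatives were DESeq2 1.42.0 and its size factors, no filter, the replicate block, a length offset, the 2 compared groups alone, pan-neuronal scaling and each library left out.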

Additional observations from a re-analysis of the deposited data

How the results depend on the processing

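Of the 6 members that passed the filter, the number called, 6 between cultures and ganglia and 0 elsewhere, was the same in all alternatives but 1. With no filter Asic4 was called too, in both culture comparisons. In the 2 culture comparisons 144 alternative values for single members included 0 changes of sign and 1 lost call, Asic1 in KO under pan-neuronal scaling. In the other 8 comparisons 605 values included 56 changes of sign, none of them called before or after. The replicate block changed no member's call, and moved Tmem150c for rPOSTN in WT to 0.0028 and Piezo1 for rPOSTN in KO to -0.022. Piezo2 for rPOSTN in KO was at 0.00027 with no filter, and Tmem150c for IMQ in KO at -0.019 with the length offset.

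The 56 included 20 of 60 values for KO against WT in IMQ ganglia, where Asic1 ran from -0.26 to 0.32 over the alternatives. They also included 8 of 90 for the IMQ response in KO minus WT, where Asic1 ran from -0.41 to 0.18 around a reported -0.14, and 5 of 119 for the rPOSTN response in KO minus WT. The ranges that follow leave out each library in turn. For IMQ, Asic3 in WT ran from -0.0026 to 0.080, and in KO Asic2 ran from -0.12 to 0.0057, Asic3 from -0.22 to 0.061 and Tmem150c from -0.0038 to 0.086. For KO against WT in vehicle ganglia Piezo2 ran from -0.12 to 0.17 and Tmem150c from -0.0089 to 0.092. For rPOSTN in WT, Asic1 ran from -0.00056 to 0.26, Asic2 from -0.014 to 0.12 and Tmem150c from -0.086 to 0.13. For rPOSTN in KO, Piezo1 ran from -0.27 to 0.24, Piezo2 from -0.16 to 0.18 and Asic3 from -0.045 to 0.067. Where this left 1 IMQ library, that library was assumed to vary like the other groups. The cause of these changes was not tested.

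Counts over all genes moved more. For IMQ in WT, edgeR called 224 genes, DESeq2 369, and edgeR 82 to 160 with 1 library left out (82 without WT IMQ 2, 107 without WT IMQ 1). For IMQ in KO these were 190, 296 and 56 to 165 (56 without KO IMQ 1), and 58 with the 2 compared groups alone. The IMQ response in KO minus WT had 0 called by edgeR, 5 by DESeq2, 2 with no filter and at most 1 with a library left out. KO against WT in vehicle ganglia had 2, 31 by DESeq2, 22 with no filter, 1 with the 2 groups alone and 0 to 2 with a library left out. KO against WT in IMQ ganglia had 1, 2 by DESeq2, 2 with no filter, 5 with the 2 groups alone and 0 to 1 with a library left out. rPOSTN in WT had 0, 2 with no filter and 8 with the replicate block. Counts of a few per library limit Asic4 and Stoml3, and 2 IMQ libraries per genotype limit the IMQ comparisons.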

Other observations

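For each of the 6 well expressed members, the 3 genes with the most similar profile over the 8 group means are given as a description. Likeness was the root-mean-square distance between centred log2 group means (CPM with 0.1 added), among 15428 genes. It is driven by the step between ganglia and cultures. For Piezo1 these were Nfkb2 (distance 0.06), Mmp14 (0.06) and Abca1 (0.08), against a median distance of 1.31 over all genes. For Piezo2 they were Lgi1 (0.06), Lrrc49 (0.06) and Abca7 (0.07), with a median of 1.04. The nearest gene was St3gal6 for Asic1 (0.08), Celf6 for Asic2 (0.05), Rcan2 for Asic3 (0.03) and Zcchc18 for Tmem150c (0.05). The next were Sgo2a and Osbpl3 for Asic1, Cpne6 and Micu3 for Asic2, Prkcz and Pfkm for Asic3, and Atp1b3 and Ppfia4 for Tmem150c.

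The ratio of Piezo2 to Piezo1 in CPM per kb, a measure chosen after its values were seen and given with no test, was 26.6 to 39.1 in the 6 vehicle ganglia and 17.6 to 25.3 in the 4 IMQ ganglia. These ranges did not overlap, but the share of other gene pairs without overlap was not computed. Of single genes, 21.5% in WT and 23.8% in KO did not overlap between IMQ and vehicle. Within WT the gap was small, from 26.6 in WT vehicle 1 to 25.3 in WT IMQ 1. In the 12 culture libraries the ratio was 0.965 to 1.23. KO vehicle ganglia had ratios of 30.2, 39.1 and 35.8 and WT vehicle ganglia 26.6, 29.6 and 31.4.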
